A study of Rattus norvegicus with 15 samples.

Results

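The insulin-like growth factor (IGF) system was examined in rat epididymal fat through 10 genes: the ligands Igf1 and Igf2, the receptors Igf1r and Igf2r, and the binding proteins Igfbp2, Igfbp3, Igfbp4, Igfbp5, Igfbp6 and Igfbp7. The genes were selected by name, and every probe set whose platform annotation named 1 of them and no other gene was taken. This gave 23 of the 31042 probe sets on the array that are not controls, and 10 of 14217 named genes. The series held 7 diet-induced obese rats and 8 control lean rats, all male Long-Evans, with 1 Affymetrix RAE230_2 array of epididymal fat RNA each. Obese rats had eaten a high fat/high sucrose diet (TD95217) from weaning, and lean rats a regular chow (Purina 5008). Rats of both groups were shipped from a private colony when 14 weeks old, acclimated for 2 weeks and housed singly. They had a glucose test at 21 weeks and blood taken fasted at 25 weeks, and were killed at 26 weeks, fed, for the tissue. Diet and obesity cannot be told apart in this design.

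IGF1 and IGF2 are small secreted proteins related to insulin. Both act through the receptor tyrosine kinase IGF1R, while IGF2R, which is also the cation-independent mannose 6-phosphate receptor, takes up IGF2 and carries it to lysosomes. Binding proteins hold IGFs in blood and tissue and control how much of them reaches the receptor, and proteases that cut the binding proteins set IGFs free. Fat tissue makes much IGF1 of its own, and IGF signals promote the growth and differentiation of fat cell precursors.

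The values are MAS5 signals, the brightness the Affymetrix program gives a probe set, on a linear scale. Obese rat 1 and lean rat 7 (C1 and A7 in the labels) had near-identical arrays although labelled as different groups. Their log2 signals differed with an SD of 0.22 over 18625 probe sets, against 0.37 to 0.61 for every other pair of arrays. The labels do not tell which of the 2 is in its own group, so each comparison was made with all 15 arrays and again with the 13 arrays without this pair (6 obese, 7 lean). The fat cell markers Adipoq, Plin1, Cidec and Lep and the 6 others of the list were all above the filter on low signals (a mean above the 40th percentile of probe sets), and the 3 epididymal epithelium markers with a probe set lay below it. The labels do not say whether arrays were run in batches.

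Igfbp3 was higher in obese fat with 13 arrays, where it was the 1 member gene that passed the test (adjusted p under 0.05); with all 15 arrays no member passed. IGFBP3 is the main carrier of IGFs in blood, and within tissues it can both hold back IGFs and act on cells without them. With 13 arrays its brightest probe set (1367652_at) had a signal of 10766 ± 4086 in the 6 obese rats, against 4625 ± 1516 in the 7 lean rats (SD). Obese over lean, the log2 fold change was 1.19 ± 0.24 (SE; 95% interval 0.67 to 1.70; limma adjusted p = 0.0346). With all 15 arrays it was 1.02 ± 0.25 (SE; 95% interval 0.49 to 1.54; limma adjusted p = 0.105), short of the threshold. In whole fat, a change in the number of cells that make a transcript and a change in the amount made per cell cannot be told apart.

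The call lay near the threshold. It was lost with no filter and in most fits that left out 1 more rat, from either group. Other settings that lost it are given below. With no filter on low signals Igfbp3 missed the threshold with 13 arrays (limma adjusted p = 0.0867). Leaving out 1 more rat from the 13 kept the log2 fold change between 1.02 and 1.34, but the gene missed the threshold in 9 of these 13 fits: without obese rat 5, 6, 7 or 8 and without lean rat 2, 4, 5, 6 or 8 (limma adjusted p from 0.0551 to 0.0827). Of the 15 fits that left out 1 rat from all 15, the one without obese rat 1 passed (log2 fold change 1.17; limma adjusted p = 0.0217).

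Igfbp3 was read by 2 probe sets, and both moved the same way. On 1367652_at the signals of the 15 rats ran over a lowest, median and highest value of 4697.1, 9553.8 and 18034.1 in obese rats, against 2662.0, 4553 and 7202.7 in lean rats. Obese rats 2, 5, 6, 7 and 8 lay above every lean rat, while obese rats 1 and 3 lay inside the lean range, so the groups overlapped. On 1386881_at these values were 2490.4, 5439.3 and 10901.9 in obese rats, against 2339.6, 2694 and 4277.7 in lean rats. Again the same 5 obese rats lay above every lean rat. Obese rat 5 was the highest and lean rat 1 was the highest of the lean rats on both probe sets. For 1386881_at the log2 fold change was 0.995 ± 0.205 with 13 arrays (SE; limma adjusted p = 0.037) and 0.84 ± 0.23 with 15 (SE; limma adjusted p = 0.116).

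**Figure D1:**
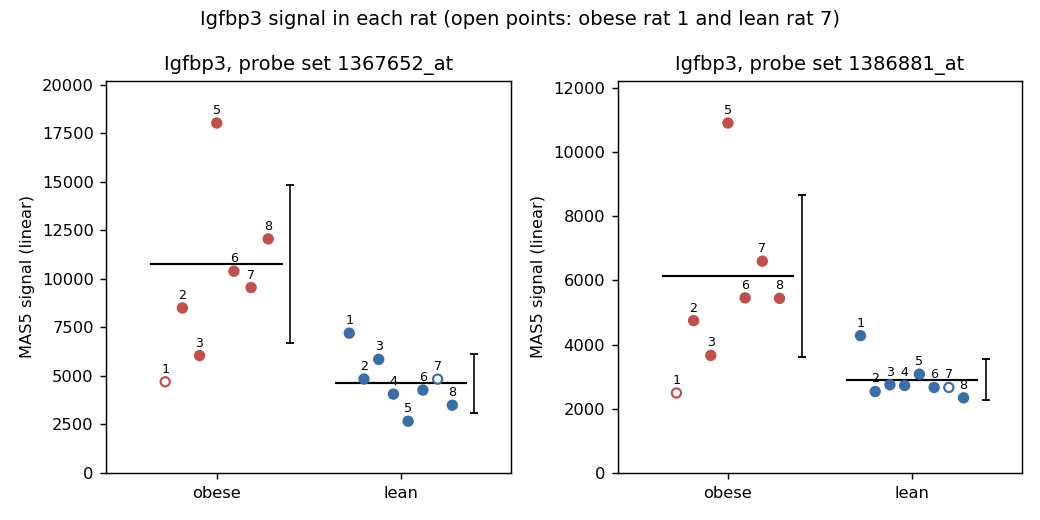
Igfbp3 MAS5 signal (linear axis from 0) in each rat for its 2 probe sets, obese rats left and lean rats right, with rat numbers beside the points. Open points are obese rat 1 and lean rat 7; black lines and bars are the mean and SD of the other rats. Obese rats 2, 5, 6, 7 and 8 lie above all lean rats in both panels.

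Against the whole array, 189 of 18625 probe sets passed with 13 arrays, 1.01% of those tested; 135 (0.725%) were higher and 54 (0.29%) lower in obese rats. Centring each array on its median gave 357 higher and 32 lower. The 2 Igfbp3 probe sets were 2 of the 19 member probe sets above the filter, and by brightest probe set Igfbp3 was 1 of 10 member genes, against 1.1% of all genes. With all 15 arrays 0% of probe sets passed, and 15.6% had an unadjusted p under 0.05. The 2 Igfbp3 probe sets were among these 15.6%, and the other 17 member probe sets were not. With 13 arrays the same 2 were the members among the 17.8% with an unadjusted p under 0.05. No member probe set had groups free of overlap, which 0.193% of probe sets had with 15 arrays and 1.45% with 13. By p, the Igfbp3 probe sets stood at ranks 97 and 100 of 18625 with 13 arrays, and by size of increase at ranks 37 and 70.

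The RefSeq window around the start of Igfbp3 is shown because it belongs to the member that passed. It covers 250 bases before the start and 50 after it, at chr14:86277895-86278194 of build GRCr8, on the minus strand, with the TATATA match in capitals.
Igfbp3: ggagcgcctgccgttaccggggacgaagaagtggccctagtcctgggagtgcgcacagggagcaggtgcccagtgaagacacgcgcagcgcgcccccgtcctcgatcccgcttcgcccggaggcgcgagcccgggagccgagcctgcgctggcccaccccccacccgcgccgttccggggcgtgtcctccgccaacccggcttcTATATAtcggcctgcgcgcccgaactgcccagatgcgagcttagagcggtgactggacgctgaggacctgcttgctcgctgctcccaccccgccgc

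The window is 71.7% G and C, and the match begins at position -46 from the annotated start. On either strand TATATA was found in 6.15% of 33469 such windows and in 1 of 11 windows of the member genes (Igf2 has 2). TATAAA was found in 14.2% of all windows and in that of Igfbp4 among the members, and GGGCGG in 33.1% of all and in 6 of the 11. These letters describe the sequence, and the arrays did not measure what binds there. In the annotation Igfbp3 lies next to Igfbp1, whose product is best known from the liver. The Igfbp1 probe set lay below the filter, with a signal of 217 ± 154 in the 7 obese rats and 278 ± 228 in the 8 lean rats (SD).

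Macrophage markers moved in the same direction as Igfbp3. All 11 listed markers were above the filter and had positive log2 fold changes in both comparisons, and 5 of them passed with 13 arrays (Gpnmb, Lgals3, Laptm5, Itgax and Cd68). Among those that did not pass, Adgre1, Csf1r and Cd14 had log2 fold changes of 0.24, 0.31 and 0.13 (limma adjusted p = 0.614, 0.177 and 0.635). Gpnmb and Lgals3 were the brightest of the 11 in obese rats, so the summed signal leans on them. They averaged 44416 and 48913 in the 6 obese rats against 10308 and 25637 in the 7 lean rats. The summed signal of the 11 ran from 110813 to 260400 in the 6 obese rats of the 13 arrays and from 64449 to 100123 in the 7 lean rats. The sum was 89869 in obese rat 1 and 90997 in lean rat 7. It was 165273 in obese rat 5, which had the highest Igfbp3 signal, and 110813 in obese rat 3, which had the lowest of these 6. Lean rat 1, highest for Igfbp3 among lean rats, was also highest for the markers at 100123. Obese rat 6 was highest of all for the markers, at 260400, and had 10395.6 for Igfbp3, below obese rats 5 and 8. None of the 11 markers was near 0, the dimmest being Itgam with a mean of 1169 over the 13 arrays, and the markers' part in the Igfbp3 result was not tested.

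**Figure D2:**
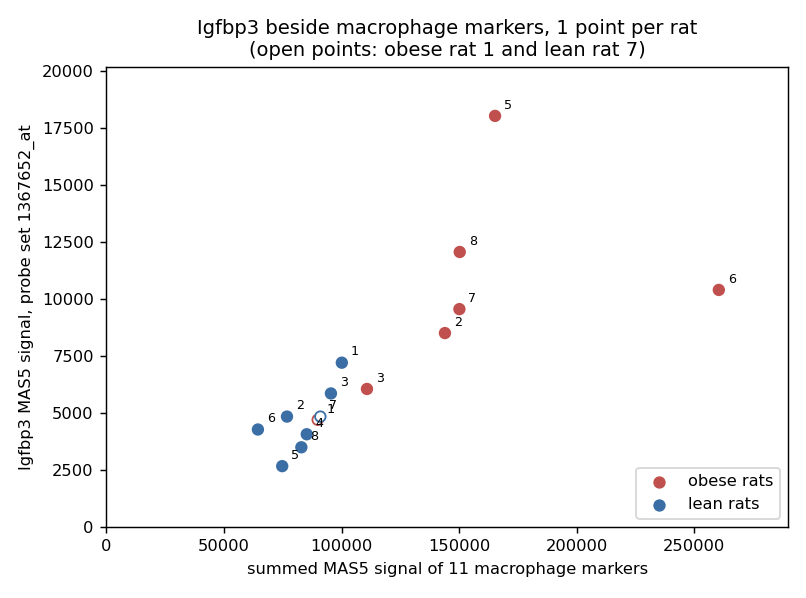
Igfbp3 MAS5 signal of probe set 1367652_at against the summed MAS5 signal of 11 macrophage markers, both linear from 0, 1 numbered point per rat, obese and lean rats in different colours and obese rat 1 and lean rat 7 open. Obese rats 2, 5, 6, 7 and 8 lie above all lean rats on both axes, and obese rat 6, at 260400, is furthest right. In obese rats Gpnmb and Lgals3 were the brightest of the 11 markers.

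The summed signals of the other marker lists overlapped between the groups. With 13 arrays the 9 measured fibroblast and progenitor markers summed to between 180084 and 258348 in obese rats and between 165936 and 226793 in lean rats, and Col1a1 was the 1 marker of the 9 that passed, at 0.82 on the log2 scale. The 10 fat cell markers summed to between 319044 and 604086 in obese rats and between 329334 and 496090 in lean rats, with Cidea the 1 that passed, at 0.60 on the log2 scale. Of the 8 measured markers of mesothelium, the cell layer that covers the fat pad, 7 had negative log2 fold changes with 13 arrays, with a median of -0.32. Calb2 was the 1 of them that passed, at -0.83 on the log2 scale (limma adjusted p = 0.0467), and the 8 summed to between 13811 and 25722 in obese rats and between 11907 and 30541 in lean rats. The 9 measured endothelial markers summed to between 30746 and 36993 in obese rats and between 31062 and 34932 in lean rats. Between the ends of the Gapdh transcript, where a larger 3' to 5' ratio marks more degraded RNA, the log2 ratio averaged 0.72 ± 0.28 in the 6 obese rats and 1.05 ± 0.28 in the 7 lean rats of the 13 arrays (SD; exact two-sided permutation p = 0.0589). With that ratio as a covariate, Igfbp3 had a log2 fold change of 1.23 and did not pass (limma adjusted p = 0.119).

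Of the 10 member genes by brightest probe set, 3 had a positive and 7 a negative log2 fold change in both comparisons, where 46.9% of all genes were positive with 15 arrays and 46.7% with 13. Centring each array on its median turned Igf2, Igf1r and Igf2r positive. The median of the 10 was -0.05 with 15 arrays and -0.06 with 13, beside -0.01 and -0.02 over 10514 genes. Aside from Igfbp3, no member gene passed in either comparison, and their log2 fold changes with 13 arrays ran from -0.41 for Igfbp2 to 0.10 for Igfbp4.

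**Figure D3:**
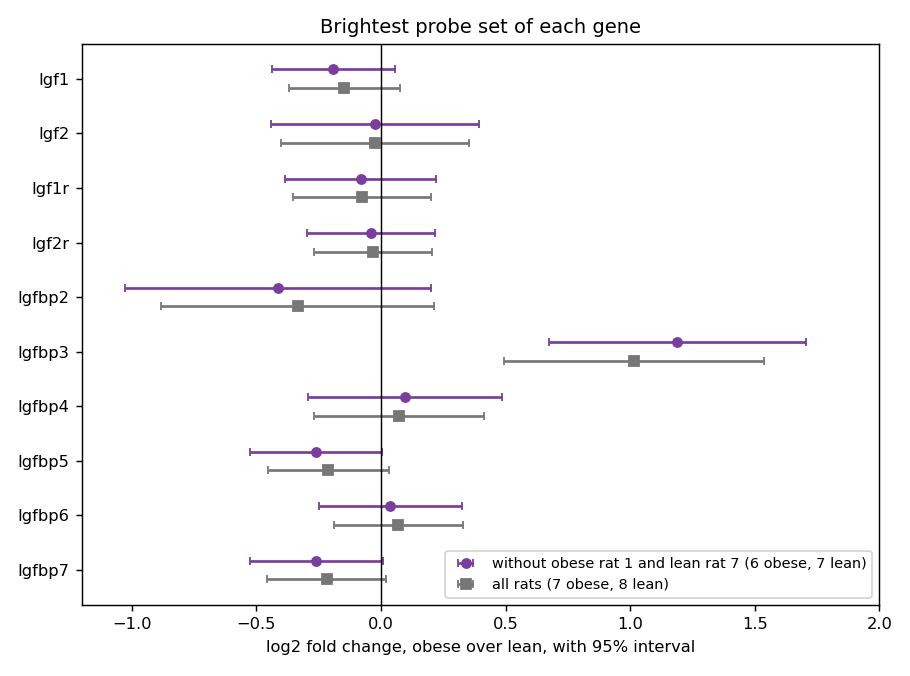
Log2 fold change of obese over lean rats for the brightest probe set of each of the 10 genes, with 95% intervals from limma; circles are the 13 arrays and squares all 15. The Igfbp3 intervals lie above 0 (0.67 to 1.70 and 0.49 to 1.54), and those of the other 9 genes include 0.

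**Figure D4:**
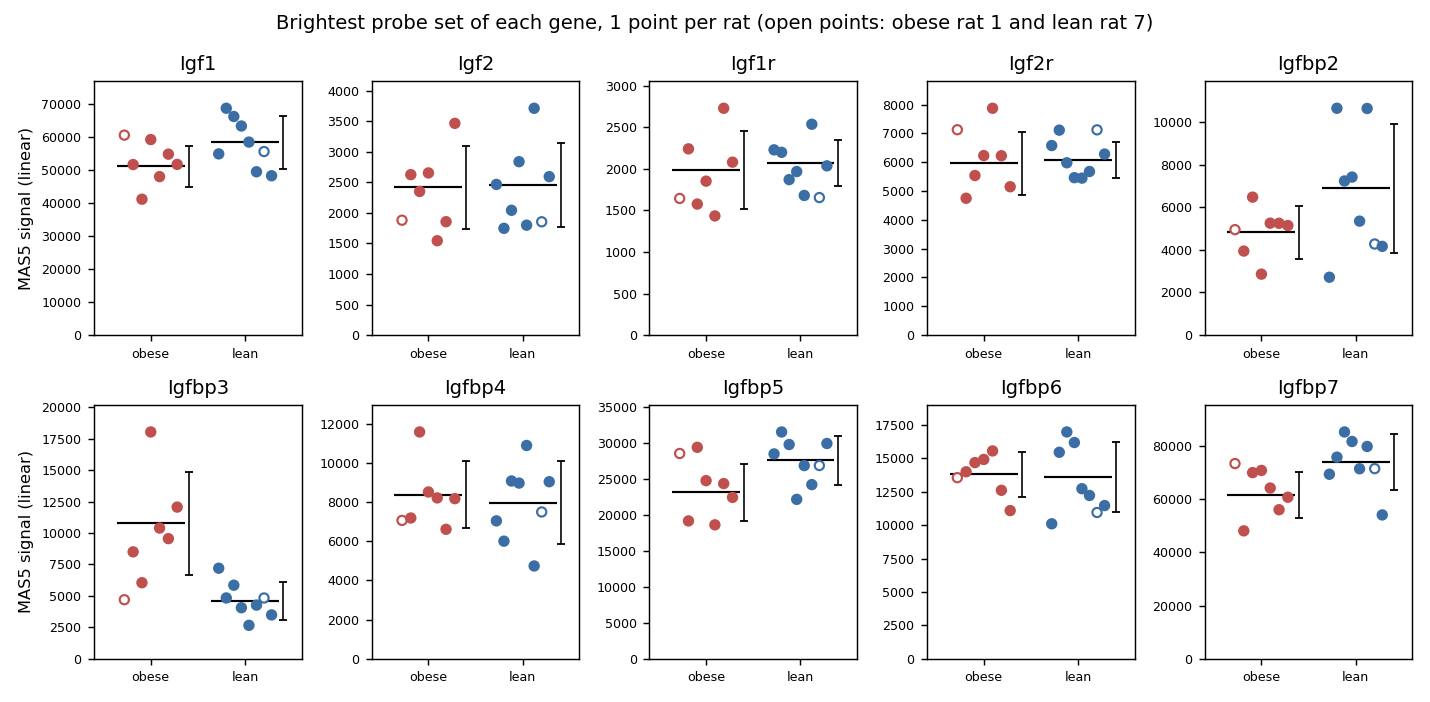
MAS5 signal (linear axes from 0, a scale per gene) of the brightest probe set of each gene, obese rats left of lean rats, 1 point per rat; open points are obese rat 1 and lean rat 7, and lines and bars are the mean and SD of the other rats. The groups overlap for all 10 genes; for Igfbp3, obese rats 2, 5, 6, 7 and 8 lie above every lean rat, up to 18034.1.

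The ligand Igf1, the growth factor whose production growth hormone drives, was bright in every rat. On 1370333_a_at its signals had a lowest, median and highest value of 41128.1, 51660.3 and 60517.7 in obese rats, against 48228.0, 56981 and 68647.2 in lean rats. Obese rats 3 and 6 lay below every lean rat, and lean rats 2, 3 and 4 above every obese rat, with the rest mixed. In the fit, the log2 fold change was -0.19 ± 0.12 with 13 arrays (SE; 95% interval -0.44 to 0.06; limma adjusted p = 0.407) and -0.15 ± 0.11 with 15 (SE; limma adjusted p = 0.516). The interval with 13 arrays leaves room for a decrease of up to 0.44 on the log2 scale.

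The other Igf1 probe sets did not share a sign. On 1388469_at the log2 fold change with 13 arrays was -0.18 ± 0.13, and on 1382599_at it was 0.18 ± 0.14 (SE; limma adjusted p = 0.486 and 0.549). The dimmer 1382599_at had signals from 6371.5 to 9220.8 in obese and from 4728.0 to 9385.7 in lean rats. No Igf1 probe set separated the groups.

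Igf2, the ligand that is imprinted and best known from fetal growth, was measured above the filter by 1 of its 4 probe sets. On 1367571_a_at the lowest, median and highest signals were 1544.9, 2351.4 and 3466.4 in obese rats, against 1747.9, 2255 and 3713.6 in lean rats. The ranges lay almost on top of each other. The log2 fold change was -0.03 ± 0.20 with 13 arrays (SE; 95% interval -0.44 to 0.39; limma adjusted p = 0.964) and -0.03 ± 0.18 with 15 (SE; limma adjusted p = 0.959), and its sign turned under median centring and other settings.

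The 3 dim Igf2 probe sets are given for completeness. On 1371206_a_at the signals were 47.5, 54.8 and 105.7 (lowest, median and highest) in obese rats, against 69.0, 88.7 and 144.9 in lean rats. Of the 7 obese rats, 6 lay below every lean rat, and obese rat 3, at 105.7, lay within the lean range. Without a filter the log2 fold change of this probe set was -0.30 in both comparisons, with an unadjusted limma p of 0.0148 for 15 arrays and 0.0277 for 13. Signals this low are close to the value of 79.9 added before the log2 scale, so little can be read from them. On 1388252_at and 1398322_at all but 5 and 2 of the 15 rats had signals under 100.

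The receptor Igf1r, the tyrosine kinase through which both ligands signal, had 2 probe sets with no difference that passed. On 1392492_at the lowest, median and highest signals were 1434.2, 1852.9 and 2729.9 in obese rats, against 1655.1, 2002 and 2537.4 in lean rats. Obese rats 1, 3 and 6 lay below every lean rat and obese rat 7 above every lean rat. Obese over lean, the log2 fold change with 13 arrays was -0.08 ± 0.14 (SE; 95% interval -0.39 to 0.22; limma adjusted p = 0.804). On 1368123_at it was 0.01 ± 0.13 (SE; limma adjusted p = 0.989).

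Between rats the 2 Igf1r probe sets ran against each other. Obese rat 7 was highest on 1392492_at, at 2729.9, and lowest of the obese rats on 1368123_at, at 1130.5. Obese rat 6 was lowest on 1392492_at, at 1434.2, and highest of the obese rats on 1368123_at, at 1597.8. Among lean rats, rat 5 had 1680.4 and 1766.9 and rat 6 had 2537.4 and 1208.7. After the group means were taken off, the correlation between the probe sets was -0.75 over 13 arrays, given as a description. For Igfbp3 the same measure was 0.74.

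Igf2r, which clears IGF2 and sorts lysosomal enzymes, did not differ beyond its spread. On 1386872_at the lowest, median and highest signals were 4750.3, 6225.2 and 7873.6 in obese rats, against 5448.3, 6132 and 7123.8 in lean rats. Obese rats spread to both sides of the lean range. In the fit, the log2 fold change with 13 arrays was -0.04 ± 0.12 (SE; 95% interval -0.30 to 0.21; limma adjusted p = 0.89), and on 1367636_at it was -0.04 ± 0.17 (SE; limma adjusted p = 0.929). Lean rat 8 had 2993.2 on 1367636_at, well below the other lean rats.

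Igfbp2, the binding protein that precursors and fat cells secrete and that leptin raises in mouse liver, had the widest lean spread relative to its level among the brightest probe sets. Its signals were 2861.1, 5142.4 and 6474.7 (lowest, median and highest) in obese rats, against 2716.6, 6291 and 10645.1 in lean rats. Lean rats 2, 3, 4 and 6 lay above every obese rat, and lean rat 1 lay below every obese rat. The same lean rats 2, 3, 4 and 6 had the highest summed mesothelial markers among lean rats, at 28066, 23119, 27474 and 30541, and lean rat 1 had the lowest of all rats, at 11907. Among obese rats the highest sum, 25722, was that of rat 2, whose Igfbp2 signal of 3943.4 was below the obese median. The markers' part in the Igfbp2 values was not tested. The log2 fold change with 13 arrays was -0.41 ± 0.29 (SE; 95% interval -1.03 to 0.20; limma adjusted p = 0.478), so a fall of 1.03 on the log2 scale lies within the interval. Lean rats 2, 3, 4 and 6 also had the highest Gapdh log2 ratios among lean rats, at 1.09, 1.06, 1.35 and 1.38. Lean rat 1 had 0.95, and lean rat 8 was lowest at 0.56. With the Gapdh ratio as a covariate the Igfbp2 estimate was -0.19.

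Igfbp4, which fat cells and their precursors secrete and which the protease PAPP-A cuts, had signals of 6611.0, 8175.4 and 11580.7 in obese rats and 4739.0, 8234 and 10889.8 in lean rats (lowest, median and highest). Obese over lean, the log2 fold change with 13 arrays was 0.10 ± 0.18 (SE; 95% interval -0.29 to 0.49; limma adjusted p = 0.818). Obese rat 3 was the highest of all rats, at 11580.7.

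Igfbp5, a binding protein that attaches to extracellular matrix, was read by 5 probe sets, 4 of them above the filter. On the brightest, 1370960_at, the signals were 18610.0, 24338.3 and 29379.8 in obese rats and 22147.3, 27654 and 31509.5 in lean rats (lowest, median and highest). Obese rats 2 and 6 lay below every lean rat. In the fit, the log2 fold change was -0.26 ± 0.12 with 13 arrays (SE; 95% interval -0.53 to 0.0051; limma adjusted p = 0.289) and -0.21 ± 0.11 with 15 (SE; limma adjusted p = 0.383).

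The dimmer Igfbp5 probe sets differed in sign, and the mean over the probe sets had a log2 fold change of -0.02 with 13 arrays. With 13 arrays 1387348_at had a log2 fold change of -0.15, 1396152_s_at 0.02 and 1397830_at 0.31 (limma adjusted p = 0.824, 0.967 and 0.562). On 1397830_at obese rats 3, 7 and 8, at 1502.9, 1031.2 and 1209.4, lay above every lean rat, where the highest was 981.1. The fifth, 1387347_at, had signals from 43.5 to 58.8 in obese and from 46.9 to 79.2 in lean rats, below the filter. Igfbp5 lies beside Igfbp2 in the annotation, and neither passed.

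Igfbp6, the binding protein that prefers IGF2 over IGF1, had signals of 11090.9, 13994.9 and 15555.0 in obese rats and 10102.7, 12474 and 16974.7 in lean rats (lowest, median and highest) on 1372168_s_at. The log2 fold change with 13 arrays was 0.04 ± 0.13 (SE; 95% interval -0.25 to 0.32; limma adjusted p = 0.914), and on 1387625_at it was 0.20 ± 0.18 (SE; limma adjusted p = 0.581). The obese range lay inside the lean range on both probe sets.

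Igfbp7, a related protein of vessels and stroma that binds IGFs only weakly, was bright in every rat. Its signals were 48098.1, 64200.1 and 73401.1 in obese rats and 54088.9, 73649 and 85279.5 in lean rats (lowest, median and highest). With 13 arrays 5 lean rats lay above every obese rat and obese rat 2 lay below every lean rat. Obese over lean, the log2 fold change was -0.26 ± 0.13 with 13 arrays (SE; 95% interval -0.53 to 0.0063; limma adjusted p = 0.29) and -0.22 ± 0.11 with 15 (SE; limma adjusted p = 0.363). With the Gapdh ratio as a covariate the estimates were -0.08 with 13 arrays and -0.06 with 15.

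Genes around the system were described from lists, by brightest probe set, with the 1.1% of genes that passed with 13 arrays as background; with 15 arrays no list member passed. Among proteases that cut binding proteins and their inhibitors, 9 of 14 listed genes were above the filter, 1 rose with 13 arrays and 0 fell, and the median log2 fold change was 0.01 beside -0.02 over all genes. The one that rose was Ctsd, the lysosomal protease cathepsin D, which averaged 15139 ± 3723 in the 6 obese rats against 9028 ± 1640 in the 7 lean rats (SD). Its log2 fold change was 0.73 ± 0.15 with 13 arrays (SE; limma adjusted p = 0.0419) and 0.63 with 15 (limma adjusted p = 0.103). Cathepsin D is also abundant in macrophages, whose summed markers are given above, and their part in this result was not tested.

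Of 12 imprinted growth genes 9 were above the filter, 0 rose and 1 fell with 13 arrays, with a median of -0.04. This was Mest, whose expression marks expanding fat tissue in mice. Its signal averaged 11802 ± 3362 in the 6 obese rats against 24803 ± 3642 in the 7 lean rats (SD), and the difference was -1.10 ± 0.16 on the log2 scale (SE; limma adjusted p = 0.00961). With 15 arrays Mest had -0.94 (limma adjusted p = 0.0948). H19, the noncoding RNA that shares its imprinting control with Igf2, is in the same list and did not pass; it averaged 1062 ± 320 in the 6 obese rats against 1046 ± 503 in the 7 lean rats (SD).

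Other lists held no gene that passed in either comparison. Of 11 genes of growth hormone action, which drives Igf1, 5 were above the filter, with a median of -0.15 with 13 arrays. The smallest p values there belonged to the kinase Jak2 at 0.27, the growth hormone receptor Ghr at 0.21 and the transcription factor Stat5a at -0.20 (limma adjusted p = 0.32, 0.437 and 0.521). Igfals, the blood partner of IGFBP3 made in liver, lay below the filter, at 39.0 ± 9.7 in the 7 obese rats and 43 ± 19 in the 8 lean rats (SD).

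Of 28 receptor adaptors and downstream kinases 22 were above the filter, with a median of 0.06 with 13 arrays. The insulin receptor Insr averaged 913 ± 334 in the 6 obese rats against 1372 ± 255 in the 7 lean rats (SD). Its log2 fold change of -0.60 ± 0.20 (SE) did not pass (limma adjusted p = 0.139), nor did the kinases Map2k1 at 0.24 and Gsk3b at -0.27 (limma adjusted p = 0.252 and 0.26). All 13 mannose 6-phosphate sorting genes, the pathway that IGF2R serves, were above the filter, with a median of 0.09. The cation-dependent receptor M6pr had 0.39 ± 0.13 (SE; limma adjusted p = 0.144), the adaptor Gga3 0.26 and the sorting nexin Snx1 0.17 (limma adjusted p = 0.387 and 0.4). Of 13 Igf2 mRNA-binding and IGFBP-related secreted proteins 8 were above the filter, with a median of -0.25. The mRNA-binding protein Igf2bp2 had -0.52, the endothelial proteoglycan Esm1 -0.47 and the matricellular protein Ccn3 -0.26 (limma adjusted p = 0.225, 0.228 and 0.375).

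The genes whose signals followed a member most closely were found over the 13 arrays, as Pearson's r of log2 values after the group means were taken off, among 10514 genes. The values describe these arrays, which share the scaling and RNA quality of each rat. Each member was read by its brightest probe set alone. Being the highest among 10514 genes, the values for single genes are also raised by selection. For Igfbp3 they were Akap13 (r = 0.87), Arglu1 (0.85) and Stk35 (0.84). For Igf1 they were Adipor1 (0.85), Asns (0.85) and Fam98a (0.84), and for Igf2 they were Amot (0.92), Apc2 (0.85) and Rrm1 (0.85). Among the 10 members themselves, by brightest probe set, r ran from -0.75 between Igf1r and Igfbp4 to 0.54 between Igfbp6 and Igfbp7. It was 0.51 between Igf1 and Igfbp3. The Igf1r value is that of 1392492_at alone, which ran against the other Igf1r probe set, 1368123_at (r = -0.75), so it may not hold for the gene.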

How the data were processed

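The authors deposited an intensity for each probe set and rat, on a linear scale, which MAS5 computed per the submitters' processing notes; its version, its settings and detection calls are not given in the sources used here. Trimmed by 2% at both ends, the array means lay between 1500.34 and 1500.42, so the values were used as the authors scaled them. Since MAS5 takes mismatch probes off, low values carry much noise. Of 31042 probe sets other than controls, 20826 named 1 gene in the platform annotation, 436 several and 9780 no gene. Of those with 1 gene, 20758 were found among today's Entrez genes.

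Signals were tested as log2(signal + 79.9), the added value being the 10th percentile of all signals, so fold changes of dim genes are understated. The 18625 probe sets with a mean above the 40th percentile were kept (10514 genes). The test was limma's (version 3.58.1, R 4.3.3; lmFit, then eBayes), with Benjamini-Hochberg adjustment over all 18625 and a threshold of 0.05, once with 15 arrays and once with 13. This step was also tested on simulated data with independent noise in each probe set, without effects shared across an array. The rates need not hold for the real arrays. With 15 simulated arrays it recovered 92% of changes of 1 on the log2 scale. With 13 arrays it recovered 38% of changes of 0.5, 80% of changes of 1 and 98% of changes of 2 on the log2 scale. Smaller changes are therefore often missed. Intervals are 95% intervals from the same fit. Genes were read by their brightest probe set. The genes named were all members with all probe sets; from each pathway list, those that passed or otherwise the 3 with the smallest p; and the 3 genes most like Igf1, Igf2 and the member with the smallest p. Igfbp1, Igfals and H19, and the marker and control genes, are named outside that rule, after their values were seen. The members and lists were chosen with earlier results of these data known.

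The rat numbers name different rats in each group. Deviations from the group means of rats with the same number had correlations from -0.11 to 0.24 over 7 numbers, 2 of them above 0.1, so the rats were not treated as pairs. The alternatives tried are given with their effect in the closing section. The Gapdh ratio was compared with an exact permutation test over rats. Promoter sequence came from RefSeq's table of build GRCr8 and figures were drawn with matplotlib 3.10.9.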

Additional observations from a re-analysis of the deposited data

Results flagged for a closer look

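Some rats stood apart from the rest of their group by Dixon's gap test on log2 values, which passes about 1 group in 20 by chance; 11 of 92 groups examined passed here, several of them the same rat counted with 15 and with 13 arrays. Lean rat 6 had 771.9 on the dim Igf2 probe set 1398322_at, against 45.6 to 86.6 in the other lean rats, and with 13 arrays obese rat 6 had 136.1 on it, against 46 to 72 in the other obese rats. Obese rat 3 had 105.7 on the dim Igf2 probe set 1371206_a_at, against 47.5 to 61 in the other obese rats. Lean rat 8 had 2993.2 on Igf2r 1367636_at, against 4911.3 to 6546.2 in the other lean rats. Lean rat 1 had 4277.7 on Igfbp3 1386881_at with 15 arrays, against 2339.6 to 3075.9. Lean rat 4 had 262.7 on Igfbp5 1397830_at, against 677.2 to 981.1. Lean rat 8 had 54088.9 on Igfbp7 with 15 arrays, against 69375.3 to 85279.5.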

How the results depend on the processing

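Over all probe sets, those that passed with 13 arrays numbered 189 as reported, 124 with 1 added before the log2 scale, 46 with no filter, 334 with a filter at the 60th percentile, 389 with median centring, 124 with quantile normalization, 309 with trended and robust variance estimates, 14 with the Gapdh ratio as a covariate and 3 with the rat number as a replicate block; leaving out 1 rat gave 51 to 262. With 15 arrays they numbered 0 as reported, 3 with no filter, 49 with the stricter filter and 8 with trended and robust estimates; leaving out 1 rat gave 0 to 245, with 245 without obese rat 1 and 1 without lean rat 7. Member genes that passed with 13 arrays numbered 1 as reported and 0 with no filter, with the Gapdh covariate and with the replicate block, and 0 to 1 with 1 rat left out, as also with 15 arrays.

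Igfbp3 had positive log2 fold changes throughout, from 1.02 to 1.34 over 25 alternatives with 13 arrays (limma adjusted p from 0.0135 to 0.198) and from 0.85 to 1.17 over 27 with 15 (limma adjusted p from 0.0217 to 0.345). With 13 arrays the limma adjusted p was 0.0867 with no filter, and with the replicate block the log2 fold change was 1.32 (limma adjusted p = 0.198). The rat numbers name different rats in each group, and the labels do not say whether the numbers follow a batch. What the call lost under the block means therefore cannot be told. The second Igfbp3 probe set missed the threshold under the same 3 settings (limma adjusted p = 0.0894, 0.117 and 0.154). The cause was not tested.

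Signs turned for genes near 0, none of which passed. Median centring moved the median over all probe sets to 0.06 with 15 arrays and 0.07 with 13. Under it Igf2, Igf1r and Igf2r had 0.077, 0.025 and 0.071 with 15 arrays and 0.091, 0.035 and 0.075 with 13. Igf2 had 0.016 and 0.097 with the replicate block, 0.081 and 0.073 with array weights, and 0.012 and 0.056 with the Gapdh covariate (15 arrays, then 13). Igfbp6 with 13 arrays had -0.041 with quantile normalization and -0.0022 with array weights. With 1 rat left out of 15, Igf2 ran from -0.12 to 0.070, Igf2r from -0.093 to 0.027 and Igfbp4 from -0.027 to 0.14. With 1 left out of 13, Igf2 ran from -0.14 to 0.089, Igf1r from -0.18 to 0.0020, Igf2r from -0.12 to 0.020, Igfbp4 from -0.018 to 0.18 and Igfbp6 from -0.030 to 0.098. Estimates that did not pass moved by over 1.5 times with 13 arrays in several settings, among them Igf1 to -0.08 with median centring and -0.06 as the mean over its probe sets, Igfbp6 to 0.19 with the Gapdh covariate, Igfbp7 to -0.08 and Igfbp2 to -0.19 with the Gapdh covariate, Igfbp5 to -0.02 as the mean over its probe sets, Igfbp5 and Igfbp7 to -0.14 with median centring, and Igfbp2 to -0.63 with the replicate block. Single rats were not left out for the pathway list genes. Precision is limited by the number of arrays, and for the dim Igf2 probe sets by their low signal.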
